A study of Homo sapiens with 16 samples.

Results

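The genes described here are 10 immediate early genes, namely FOS, FOSB, JUN, JUNB, JUND, EGR1, KLF6, IER2, IER3 and DUSP1, taken by name from the 58302 Ensembl gene identifiers in the count data. All 10 were matched to an identifier. Their RNA was measured by RNA-Seq in HEK293 cells, an established human line of embryonic kidney origin, in which the RNA-binding protein Gemin5 had been silenced with 100 nM of an siRNA delivered by lipofection (siRNAG5) or not (Ctrl). The sample labels call the Ctrl cells untreated. The methods, however, name a control siRNA, and the study quantified Gemin5 protein in its silenced samples relative to siRNA control. The wording of the labels was not reconciled with this. All cells were placed in 0.1 mg/ml cycloheximide, an inhibitor of translation elongation, before lysis. RNA of the cytoplasmic lysate (Input) and of the pooled heavy fractions of a sucrose gradient (Polysome) was sequenced after selection of polyadenylated RNA, from 4 independent samples of each of the 4 groups, 16 libraries in all.

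Immediate early genes are transcribed within minutes of a stimulus such as serum, growth factor or stress, without the need for new protein synthesis, through kinase cascades that act on transcription factors already present, among them the serum response factor SRF and CREB. Their mRNAs are usually short-lived, and AU-rich elements in the 3' untranslated region (3' UTR) recruit proteins that start their decay. FOS, FOSB, JUN, JUNB and JUND encode subunits of the AP-1 transcription factor, EGR1 and KLF6 encode zinc finger transcription factors, IER2 and IER3 encode small response proteins, and DUSP1 encodes a phosphatase that switches off mitogen-activated protein kinases. Inhibitors of protein synthesis can themselves stabilize and induce such mRNAs, and the cycloheximide step was shared by all groups.

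The 10 genes lie on 6 chromosomes of the GRCh38 build. Among the AP-1 genes, FOS (ENSG00000170345) is at chr14:75278826-75282230, FOSB (ENSG00000125740) at chr19:45467995-45475179, JUN (ENSG00000177606) at chr1:58776845-58784048, JUNB (ENSG00000171223) at chr19:12791486-12793315 and JUND (ENSG00000130522) at chr19:18279694-18281622. EGR1 (ENSG00000120738) is at chr5:138465479-138469303 and KLF6 (ENSG00000067082) at chr10:3775996-3785281. IER2 (ENSG00000160888) is at chr19:13150411-13154911, IER3 (ENSG00000137331) at chr6:30743199-30744548 and DUSP1 (ENSG00000120129) at chr5:172768096-172771195. Their canonical transcripts are compact. The median length was 2107 nt against 3379 nt for the 12436 protein-coding genes tested, 8 of the 10 were shorter than that median, and JUN, JUNB and JUND have 1 exon each, as do 2.20% of the protein-coding genes tested. The longer 2 are FOSB (3775 nt) and KLF6 (4590 nt, of which 3543 nt are 3' UTR). KLF6 also has the lowest GC content of the 10 (45.7%, against a median of 48.3% over the protein-coding genes tested). JUND has the highest GC content (69.9%).

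Sequences that bear on the way these genes are switched on and their mRNAs removed are shown for FOS, EGR1, DUSP1 and KLF6. FOS and EGR1 varied most among the Ctrl libraries. DUSP1 holds both the CREB palindrome and the AU-rich nonamer described here. KLF6 had the largest ratio of Polysome to Input among the members. In the RefSeq promoter windows (GRCh38.p14, around the transcription start), 9 of the 10 genes have an entry, all but IER3. These windows are short, and sites farther upstream or downstream were not searched, so a motif missing here may lie outside the window. Within the windows a CArG box, the SRF motif, was present in EGR1 alone among the 9 and in 1.29% of all 35116 promoters. In EGR1 it was at -105 to -96 and at -83 to -74 from the start. The CREB half-site TGACG, read on both strands, was present in 8 of the 9 (all but KLF6) and in 24.6% of all promoters. The full palindrome TGACGTCA, which holds that half-site on both strands, was present in JUND and DUSP1 and in 1.85% of all promoters. TATAAA was present in FOS, FOSB, JUNB and DUSP1, that is 4 of 9, against 11.5% of all promoters. Each sequence below is the 150 bases before the RefSeq start, 5' to 3' on the strand of the gene. That start can differ from the end of the gene span given above. The KLF6 window lies within its gene span from 3785210 to 3785281, and the FOS window from 75278826 to 75278827. Capitals mark CArG boxes, TGACG on either strand and TATAAA.
EGR1 promoter, chr5:138465329-138465478, plus strand: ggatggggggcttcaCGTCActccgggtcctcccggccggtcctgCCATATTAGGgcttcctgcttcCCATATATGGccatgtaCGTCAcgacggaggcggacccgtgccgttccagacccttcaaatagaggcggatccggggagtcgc
FOS promoter, chr14:75278678-75278827, plus strand: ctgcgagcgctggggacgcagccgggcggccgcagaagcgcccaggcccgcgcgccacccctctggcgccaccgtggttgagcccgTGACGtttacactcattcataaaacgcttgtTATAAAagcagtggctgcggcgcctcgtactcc
DUSP1 promoter, chr5:172771196-172771345, minus strand: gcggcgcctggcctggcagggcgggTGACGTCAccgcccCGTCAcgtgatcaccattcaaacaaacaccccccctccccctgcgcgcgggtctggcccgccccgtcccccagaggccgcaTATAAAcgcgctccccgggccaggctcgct
KLF6 promoter, chr10:3785210-3785359, minus strand: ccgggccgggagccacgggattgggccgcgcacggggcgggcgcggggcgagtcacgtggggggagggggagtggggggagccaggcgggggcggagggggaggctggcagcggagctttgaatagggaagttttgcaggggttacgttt
In the 3' UTR, the AU-rich pentamer ATTTA was present in 9 of the 10 members, all but IER2, with a median of 3 copies against 2 over the protein-coding genes tested, of which 73.9% had it. The nonamer ATTTATTTA was present in 2 of the 10 members, FOS and DUSP1, and in 7.87% of the protein-coding genes tested. In FOS and DUSP1 it occurred once each, at bases 644 to 652 and 103 to 111 of the 3' UTR. It is shown in capitals with 10 bases on either side.
FOS 3' UTR: tgtgtttttaATTTATTTAttaagatgga
DUSP1 3' UTR: gctggtccttATTTATTTAacttcacccg
These matches describe letters in a window and were not tested for function.

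Reads counted on genes ranged from 11145324 to 24511299 per library (median 15105646), and intervals quoted for counts cover counting error only. Gemin5 mRNA itself, in CPM (reads scaled to a common library size with TMM factors), was at 15.9 to 20.7 in the Ctrl and 6.22 to 7.46 in the siRNAG5 libraries of Input, and at 5.50 to 9.28 and 2.10 to 3.08 in Polysome. All 8 markers of HEK293 were detected in all groups. Summed reads of 13 liver genes, which HEK293 cells should lack, were 1418 to 1980 in the Polysome Ctrl libraries. They were 1646 and 1354 in Input Ctrl 3 and 4, and 22 and 15 in Input Ctrl 1 and 2. All siRNAG5 libraries had 7 to 24. In Polysome every Ctrl library thus held liver RNA, against 7 to 12 reads in the siRNAG5 libraries. There the liver RNA cannot be told apart from the treatment. In Input its part in the treatment differences below was not tested beyond the values given without Input Ctrl 3 and 4. In siRNAG5, APOB, SERPINA1, FGA and CYP3A4 of the liver genes were at 0 in both fractions. Summed reads of 8 blood genes were 77 to 131 in Polysome Ctrl and 6 to 25 elsewhere, and those of 6 brain genes were 17 to 96 throughout. Polysome Ctrl 1, siRNAG5 1 and siRNAG5 4 had been set apart from the other Polysome libraries in earlier results of these data, and values without them are given where they change a call.

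The members differed widely in level. Per kilobase of transcript, which allows genes to be compared, JUND and JUN led in all groups. In Input Ctrl JUND was at 26.2 ± 2.97 CPM per kb and JUN at 20.2 ± 4.95 (SD, n = 4), and their libraries overlapped. DUSP1 (11.0 ± 3.07), IER3 (9.62 ± 1.11), JUNB (8.13 ± 2.87) and IER2 (7.02 ± 0.644) followed, each overlapping its neighbour. FOS (1.66 ± 1.21), EGR1 (0.934 ± 0.522) and KLF6 (0.336 ± 0.126) formed a lower group, clear of IER2, and FOSB was lowest at 0.147 ± 0.103. In all 4 groups the 6 genes JUND, JUN, DUSP1, IER3, JUNB and IER2 lay above the other 4 without overlap. In Polysome, KLF6 stood at 1.28 ± 0.339 in Ctrl and 1.82 ± 0.449 in siRNAG5, where it ranked above EGR1 and FOS, although with overlap. FOSB rested on 24 reads over the 4 Input Ctrl libraries and 13 over the 4 Input siRNAG5 libraries, and did not pass the expression filter in 3 of the 4 pairwise comparisons.

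**Figure D1:**
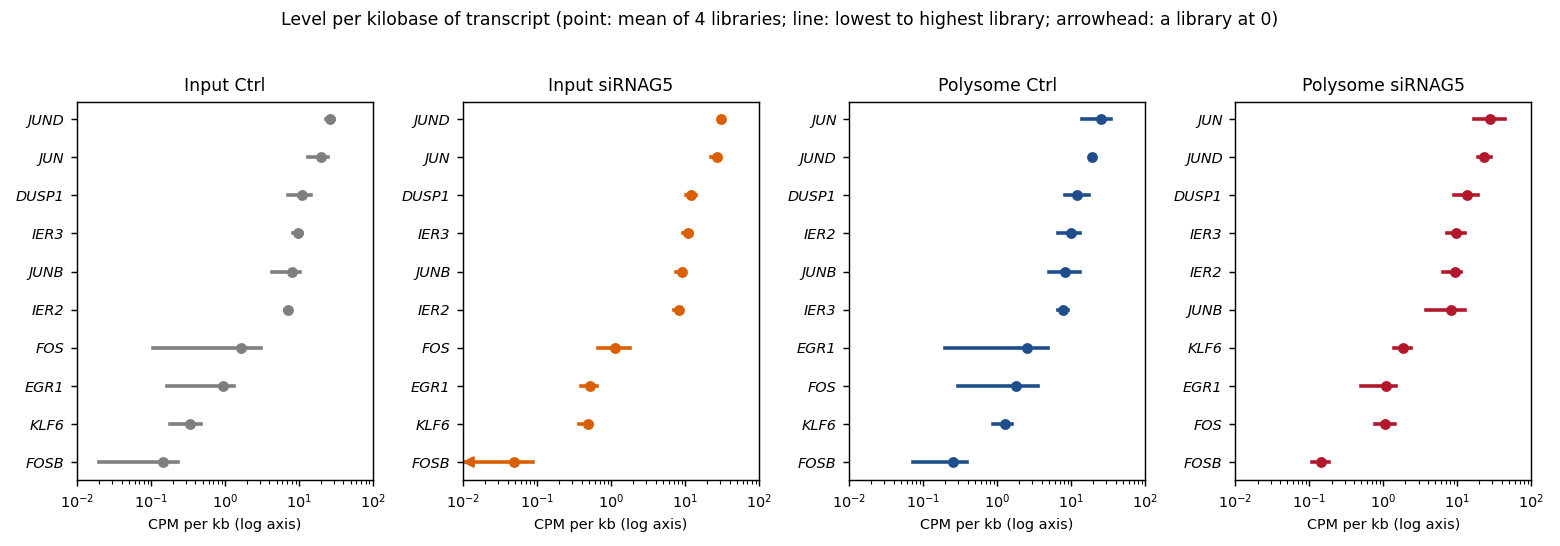
Level of each immediate early gene per kilobase of its canonical transcript, in CPM per kb on a log axis, in the 4 groups. Points are means of 4 libraries and lines run from the lowest to the highest library, and in each panel 6 genes with means of 7.02 or more lie above FOS, EGR1, KLF6 and FOSB.

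The first question is whether the RNA of these genes differed between siRNAG5 and Ctrl cells in the mRNA pool, that is in Input. None of the 9 members tested was called, a call being a Benjamini-Hochberg adjusted p under 0.05 in edgeR's quasi-likelihood test with a log2 FC beyond 0.5. Of the 14134 genes tested 16.5% were called, 10.5% of them higher and 6.02% lower. At an unadjusted p under 0.05 there were 5 of the 9 members, against 45.3% of all genes tested, and DESeq2 called 0 members too. The libraries of the groups overlapped for all 10 members, whereas all siRNAG5 libraries were higher for 15.1% and lower for 19.1% of the genes tested. The median log2 FC of the 9 was 0.20 against 0.04 over all genes tested, with 7 positive and 2 negative values. In bulk RNA, fewer cells that express a gene and less RNA per cell cannot be told apart, here and below. The p-values measure the spread between these independent samples.

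EGR1 came closest. It was at 3.38, 0.524, 3.65 and 4.17 CPM in Input Ctrl 1 to 4 and at 1.73, 2.01, 1.24 and 1.53 CPM in Input siRNAG5 1 to 4. Thus 3 Ctrl libraries lay above all 4 siRNAG5 libraries, and Ctrl 2 lay below them all. The log2 FC was -0.81 ± 0.33 (SE), with a 95% interval from -1.47 to -0.14 and an adjusted p of 0.0510 by edgeR. EGR1 was called lower without Ctrl 2 (log2 FC -1.20, adjusted p 0.000222 by edgeR) and also with RLE size factors (adjusted p 0.0479), without the filter on low counts, with an offset for transcript length and GC content (0.0221), with the replicate number as a block (0.0365), and without siRNAG5 1 or siRNAG5 2. It was not called in DESeq2 (0.269) or in a fit of all 16 libraries (0.419). Without Ctrl 3 and 4, the Input libraries with liver RNA, the log2 FC of EGR1 was -0.16 (adjusted p 0.802, edgeR), and without Ctrl 3 or Ctrl 4 alone it was -0.66 (0.163) or -0.58 (0.216). Here and below, the fit without Ctrl 3 and 4 leaves only Ctrl 1 and Ctrl 2 in Input Ctrl. Ctrl 2 was the lowest Input Ctrl library for 10 of 10 members, and its added weight was not tested apart from the liver RNA.

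FOS scattered more. Its levels were 3.58, 0.225, 3.73 and 6.44 CPM in Input Ctrl and 1.40, 3.82, 1.39 and 2.79 CPM in Input siRNAG5. Again Ctrl 2 was the lowest of all 8 libraries, on 3 reads, and the log2 FC was -0.52 ± 0.39 (95% interval -1.32 to 0.28, adjusted p 0.311, edgeR). Without Ctrl 2 it was -0.96 and called (adjusted p 0.0113, edgeR). Without Ctrl 4 it was -0.04 (adjusted p 0.959, edgeR), and without both Ctrl 3 and 4 it turned to 0.43 (adjusted p 0.539, edgeR). FOSB was at 0.398, 0.0748, 0.889 and 0.853 CPM in Ctrl and at 0, 0.336, 0.249 and 0.158 CPM in siRNAG5, too few reads for the test.

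The Jun genes lay on the other side of 0. JUN was at 73.0, 43.6, 65.3 and 81.0 CPM in Input Ctrl and at 80.0, 98.4, 73.3 and 96.2 CPM in Input siRNAG5, and 2 of the 4 siRNAG5 libraries exceeded all Ctrl libraries. Its log2 FC of 0.42 ± 0.12 had an adjusted p of 0.00432 by edgeR but stayed within the limit of 0.5. It passed that limit without Ctrl 4 (0.54), without siRNAG5 3 (0.50) and without Ctrl 3 and 4 (0.60, adjusted p 0.00127 by edgeR). Without Ctrl 2 the JUN value was 0.27 (adjusted p 0.0358, edgeR), and the adjusted p was 0.117 in DESeq2 and 0.365 in the fit of all 16 libraries. JUND, the steadiest AP-1 member, ran from 44.4 to 57.3 CPM in Ctrl and from 56.8 to 63.1 CPM in siRNAG5, with a log2 FC of 0.24 ± 0.08 and an adjusted p of 0.0167 by edgeR. That p was 0.0633 without Ctrl 1, 0.0919 without Ctrl 2 and 0.199 in the fit of all 16 libraries. With the offset for length and GC content the JUND value was -0.06 (adjusted p 0.526, edgeR), so its sign depended on that choice. JUNB, at 7.93 to 19.2 CPM in Ctrl and 14.0 to 18.5 CPM in siRNAG5, had a log2 FC of 0.18 ± 0.16, which became -0.04 without Ctrl 2.

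KLF6 was low in Input, at 1.39, 0.823, 1.78 and 2.18 CPM in Ctrl and 2.53, 2.55, 2.14 and 1.68 CPM in siRNAG5. The log2 FC was 0.55 ± 0.26 (95% interval 0.02 to 1.08, adjusted p 0.0984, edgeR). It was called without Ctrl 4 (0.76, adjusted p 0.0402 by edgeR) and without Ctrl 3 and 4 (1.04, adjusted p 0.0210 by edgeR), both of which hold liver RNA, whereas without Ctrl 2 it was 0.32 (adjusted p 0.392, edgeR). IER2, IER3 and DUSP1 had log2 FC of 0.23 ± 0.11, 0.20 ± 0.12 and 0.17 ± 0.13, with adjusted p of 0.0853, 0.214 and 0.333 by edgeR. For these 3 genes the 95% intervals ended at 0.45, 0.44 and 0.44, below the limit of 0.5. Without Ctrl 2 the value of DUSP1 was 0.00 and that of IER3 0.12, and without Ctrl 4 that of DUSP1 was 0.33.

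**Figure D2:**
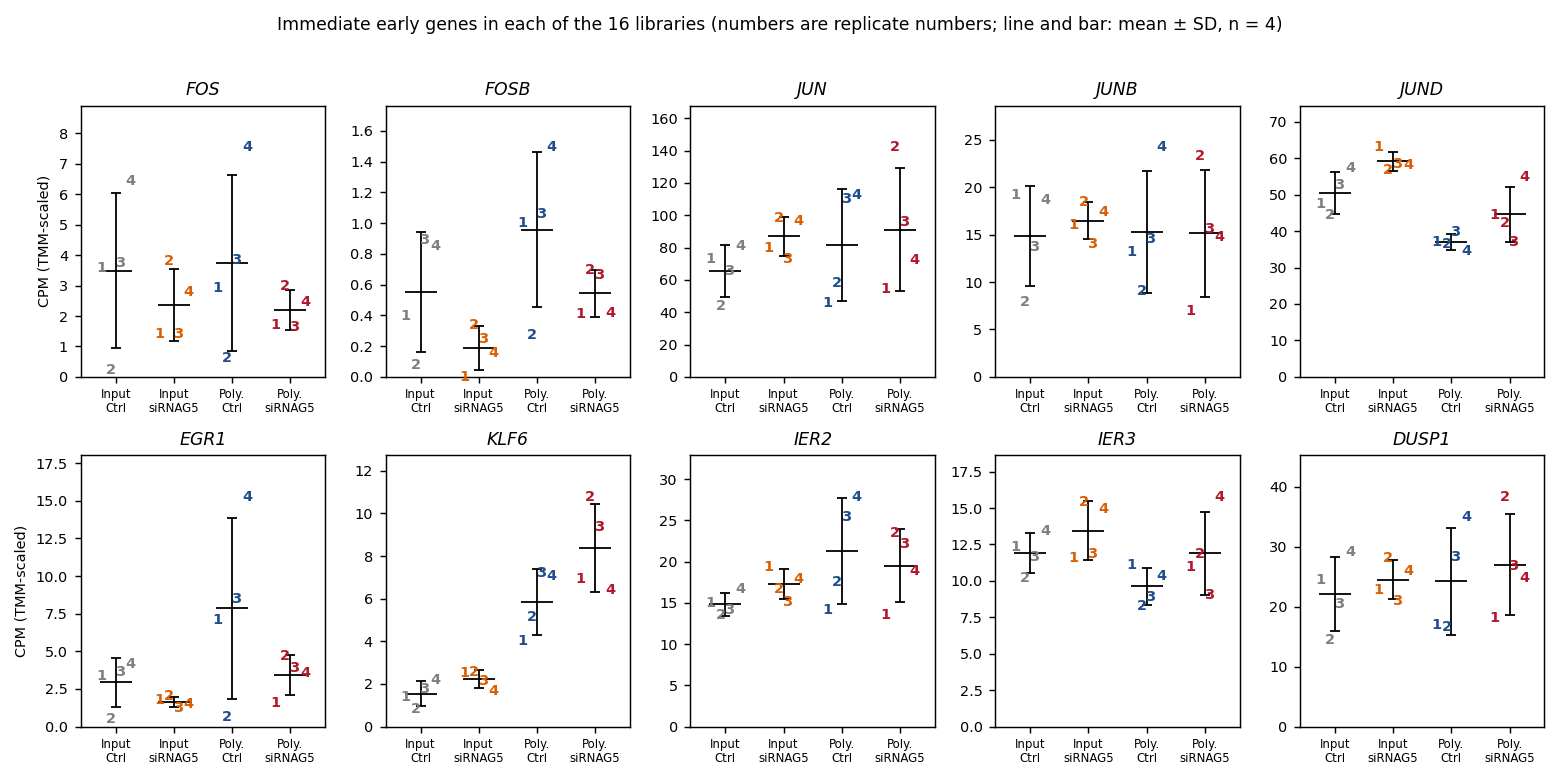
CPM of each immediate early gene in each of the 16 libraries, on linear axes from 0 that differ between panels. The digits are the replicate numbers placed at each library's value, and the line and bar are the mean ± SD of 4 libraries. Ctrl 2 sits at or near the bottom of its group for FOS, FOSB, JUNB and EGR1 in both fractions, and the KLF6 libraries of Polysome lie above those of Input.

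The same comparison in Polysome asks whether Gemin5 silencing altered the polysomal level. Here treatment cannot be told apart from the liver RNA, which all Polysome Ctrl libraries held. None of the 10 members was called, where 7.95% of 14420 genes tested were (3.95% higher and 4% lower). That is 1146 genes, and 189 without Polysome Ctrl 2. With an unadjusted p under 0.05 there was 1 member, KLF6, against 27.7% of all genes tested, and DESeq2 called 0 members. The libraries of the groups overlapped for all 10, and did not overlap for 8.29% of genes with higher and 10% with lower siRNAG5 libraries.

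EGR1 again had the lowest estimate. It was at 7.08, 0.618, 8.48 and 15.3 CPM in Polysome Ctrl and at 1.59, 4.70, 3.92 and 3.55 CPM in Polysome siRNAG5. As in Input, Ctrl 1, 3 and 4 lay above and Ctrl 2 below all siRNAG5 libraries. The log2 FC of -1.12 ± 0.60 had a 95% interval from -2.42 to 0.17 and an adjusted p of 0.243 by edgeR. FOS (2.91, 0.618, 3.85 and 7.55 CPM in Ctrl, 1.69, 3.00, 1.65 and 2.44 CPM in siRNAG5) had a log2 FC of -0.70 ± 0.50 and FOSB one of -0.73 ± 0.43, with adjusted p of 0.390 and 0.289 by edgeR. Without Polysome Ctrl 4, the library with the highest level of each of these 3 genes, the values were -0.62 for EGR1, -0.14 for FOS and -0.47 for FOSB, and without Polysome Ctrl 2, the library with the lowest, -1.50, -1.04 and -1.03. The Ctrl libraries of both genes spanned the whole siRNAG5 range.

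KLF6 was at 4.00, 5.15, 7.20 and 7.08 CPM in Polysome Ctrl and at 6.92, 10.8, 9.36 and 6.41 CPM in Polysome siRNAG5. The log2 FC was 0.56 ± 0.23 (95% interval 0.05 to 1.07, adjusted p 0.144, edgeR). Without the 3 Polysome libraries set apart it was 0.69 and called (adjusted p 0.0208, edgeR), the only member call among the alternatives of this comparison. JUND (0.31 ± 0.14), IER3 (0.34 ± 0.19), JUN (0.21 ± 0.33), DUSP1 (0.21 ± 0.27), JUNB (0.05 ± 0.34) and IER2 (-0.07 ± 0.23) were not called. The interval of JUNB ran from -0.70 to 0.79, so that a change of 0.5 in either direction was not detectable for this gene.

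Whether the change in Polysome differed from the change in Input was tested directly with the interaction of fraction and treatment in all 16 libraries. No member was called, and neither was any of the 14958 genes tested (0%). At an unadjusted p under 0.05 there were 0 members against 7.28% of all genes, and DESeq2 called 0 members and 29 genes. The values were -0.19 ± 0.83 for FOS, -0.34 ± 0.84 for EGR1, -0.24 ± 0.40 for JUN and -0.03 ± 0.36 for KLF6. All of these intervals included changes of 0.5 in both directions, for example -0.77 to 0.72 for KLF6. Differences of that size were thus not detectable in this fit, which takes the 16 libraries as independent. A fit that pairs the fractions of a lysate within each treatment was not run. The narrowest interval was that of JUND, from -0.31 to 0.39.

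**Figure D3:**
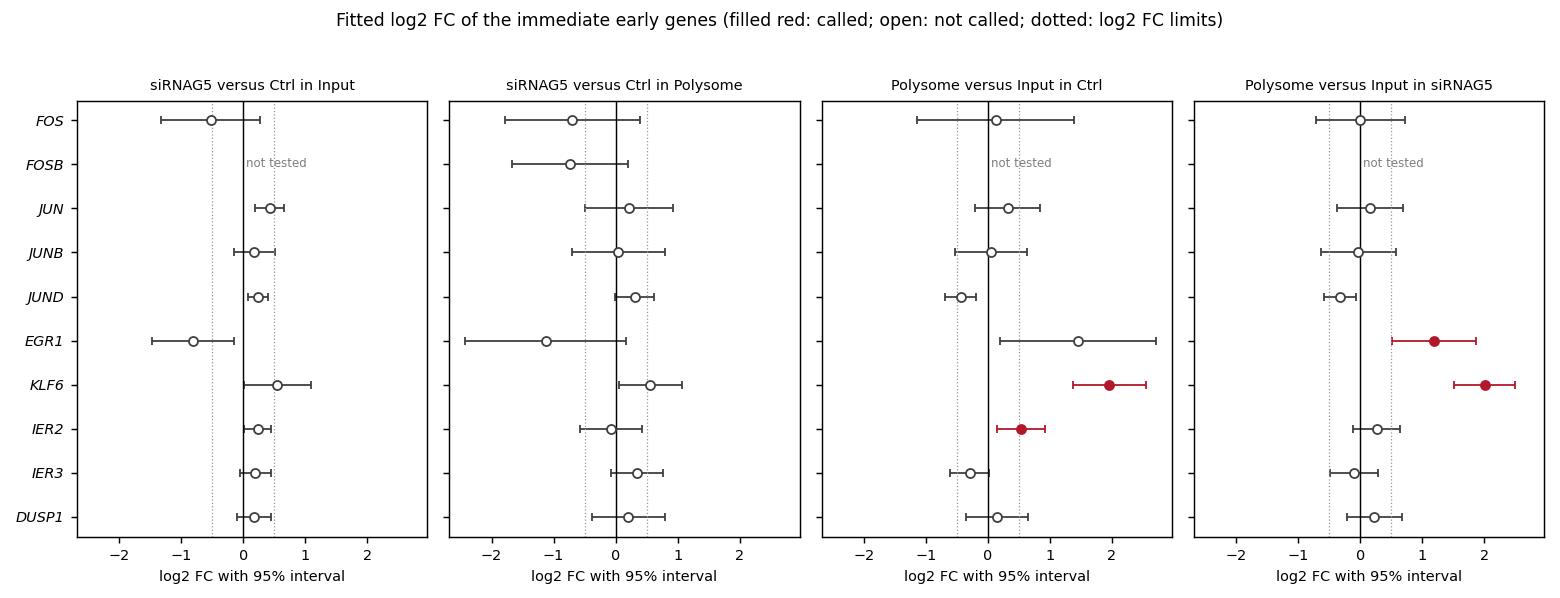
Fitted log2 FC of each member with its 95% interval from edgeR in the 4 pairwise comparisons. Filled red points were called and dotted lines mark the log2 FC limits of -0.5 and 0.5. No member was called between treatments, whereas KLF6 was called higher in Polysome than in Input in both treatments at 1.96 and 2.01.

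Polysome was then compared with Input within each treatment, which asks how the RNA of each gene in heavy fractions stands to its RNA in the lysate after scaling to the other genes. These values are relative. On raw library sizes the median gene moved by 0.49 (Ctrl) and 0.67 (siRNAG5) on the log2 scale from Input to Polysome, against -0.04 and -0.12 after TMM scaling, and Polysome libraries also lost 21.2 to 42.4% of their reads as not unique against 4.88 to 6.04% in Input. Both fractions were prepared from individual lysates, so the Input and Polysome libraries of a treatment share their source. The labels do not say that libraries with 1 number come from 1 lysate, and values with the number as a block are given where they change a call. The 2 comparisons share no libraries with each other, but each shares its libraries with the comparisons of treatments.

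KLF6 rose in both treatments. In Ctrl its 4 Input libraries (0.823 to 2.18 CPM) lay below its 4 Polysome libraries (4.00 to 7.20 CPM), with a log2 FC of 1.96 ± 0.28 and an adjusted p of 3.53e-05 by edgeR. In siRNAG5 the ranges were 1.68 to 2.55 CPM and 6.41 to 10.8 CPM, with a log2 FC of 2.01 ± 0.22 and an adjusted p of 2.13e-05 by edgeR. In Ctrl 20.8% of 13666 genes and in siRNAG5 23.9% of 14795 genes were called higher, and 2 of the 9 members tested were called higher in each. Called lower were 0 members in both, against 18.8% and 21.2% of the genes, so that 39.6% and 45.1% of the genes were called in all. With an unadjusted p under 0.05 there were 4 and 3 members, against 53.7% and 58.2% of the genes. All Polysome libraries exceeded all Input libraries for 1 member tested, KLF6, in each treatment, and for 21.2% and 22.9% of the genes. The direction held on raw library sizes (2.39 and 2.70), and with the offset for length and GC content KLF6 stayed called at 1.66 and 1.62. DESeq2 gave 1.98 and 2.02.

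EGR1 was called higher in Polysome in siRNAG5 and not in Ctrl, a difference that the interaction given above did not detect. In siRNAG5 it rose from 1.24 to 2.01 CPM in Input to 1.59 to 4.70 CPM in Polysome (log2 FC 1.19 ± 0.31, adjusted p 0.00697, edgeR), with 1 Polysome library, siRNAG5 1, inside the Input range. That library is one of the 3 set apart. In Ctrl the estimate was larger, 1.46 ± 0.59, but the adjusted p was 0.0540 by edgeR, and EGR1 was called there without the Ctrl 2 libraries of both fractions (1.45, adjusted p 0.00248 by edgeR), without Polysome Ctrl 1 or Ctrl 2, without the filter on low counts, and in the fit of all 16 libraries (0.0479). With the replicate block EGR1 was called in Ctrl at 1.32 (adjusted p 0.000190, edgeR). Without Polysome Ctrl 4 the Ctrl value was 0.93 (adjusted p 0.192, edgeR). In the fit of all 16 libraries the siRNAG5 call was lost (1.10, adjusted p 0.121).

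FOSB had too few reads in Input to be tested here. In siRNAG5 it was at 0, 0.336, 0.249 and 0.158 CPM in Input (13 reads) and at 0.410, 0.693, 0.660 and 0.415 CPM in Polysome (51 reads), without overlap, and the ratio of the means was 2.93, against 2.11 for EGR1. Where an alternative kept FOSB in the siRNAG5 comparison it was called higher in Polysome, namely without the filter on low counts (log2 FC 1.64 ± 0.53, adjusted p 0.0143 by edgeR), without Polysome siRNAG5 4 (1.75, 0.0181), in the fit of all 16 libraries (1.52, 0.0463) and without the libraries set apart (1.99, 0.00329). In Ctrl the ratio was 1.73 and the libraries overlapped, and FOSB was not called by any alternative that kept it (0.40 to 1.17, adjusted p 0.0827 to 0.554 by edgeR).

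IER2 was called higher in Polysome in Ctrl, just beyond the limit. It was at 14.9, 13.5, 14.1 and 16.7 CPM in Input Ctrl and 14.2, 17.6, 25.4 and 27.9 CPM in Polysome Ctrl, so Polysome Ctrl 1 lay inside the Input range. The log2 FC of 0.53 ± 0.18 had an adjusted p of 0.0243 by edgeR, and the call was lost when Input Ctrl 1, 2 or 3 or Polysome Ctrl 3 or 4 was left out (adjusted p 0.0545 to 0.0950), or both Ctrl 2 libraries (0.0733). With the replicate block the value was 0.49 (adjusted p 0.0157, edgeR), inside the limit. In siRNAG5 the value was 0.27 ± 0.17 (adjusted p 0.214, edgeR). Without Polysome siRNAG5 1 and 4 it was 0.58 and called, and with the offset for length and GC content it was 0.57 and called.

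JUND went the other way. Its Polysome libraries lay below its Input libraries in both treatments, at 34.5 to 39.9 against 44.4 to 57.3 CPM in Ctrl and at 36.9 to 54.9 against 56.8 to 63.1 CPM in siRNAG5. All Polysome libraries were lower than all Input libraries for 23.2% and 27.5% of the genes tested. The log2 FC were -0.44 ± 0.12 and -0.33 ± 0.12, with adjusted p of 0.00620 and 0.0395 by edgeR, both within the limit of 0.5. In siRNAG5 the adjusted p of JUND stayed under 0.05 in 1 of the 8 fits that left out 1 library, and in Ctrl in 8 of 8. The direction depended on the scaling, since raw CPM gave 0.10 and 0.40, and with the offset for length and GC content the values were -0.21 and 0.06. Among the other members, JUN had 0.32 ± 0.25 in Ctrl and 0.16 ± 0.25 in siRNAG5, and became called without the libraries set apart (0.52 and 0.63). DUSP1 had 0.15 ± 0.23 and 0.23 ± 0.20, and was called in siRNAG5 at 0.59 without Polysome siRNAG5 1 and 4. FOS (0.13 ± 0.60 and 0.00 ± 0.33), JUNB (0.05 ± 0.27 and -0.03 ± 0.28) and IER3 (-0.29 ± 0.15 and -0.10 ± 0.18) were not called in either treatment. On raw CPM the negative values of JUNB and IER3 turned positive.

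The widest differences among samples of 1 group were those of Ctrl 2, chosen here after its values had been seen and therefore described without a test. In Input, Ctrl 2 was the lowest of the 4 Ctrl libraries for 10 of 10 members, against 25.2% of 14958 genes. In Polysome it was the lowest for 6 of 10 members, against 23.3% of genes. The genes with the largest deficit were FOS, FOSB and EGR1. FOS in Input Ctrl 2 rested on 3 reads, or 0.225 CPM (95% Poisson interval 0.0463 to 0.656), which was 4.90% of the mean of the other 3 Ctrl libraries, and EGR1 rested on 7 reads, or 14.0% (95% Poisson interval of the level 0.211 to 1.08 CPM). In Polysome Ctrl 2 each of them rested on 9 reads, 12.9% and 6.01% of the mean of the other 3. Input Ctrl 2 had 18053614 reads on genes, the most of its group.

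The deficit was graded over the members. FOSB was at 10.5% in Input and 23.2% in Polysome, JUNB at 46.2% and 52.4%, DUSP1 at 58.8% and 62.4%, and JUN at 59.6% and 64.9%. IER3 (81.6% and 82.4%), IER2 (88.8% and 78.2%) and JUND (84.5% and 98.7%) were nearest to the other Ctrl libraries. KLF6 differed between the fractions, with 46.2% in Input and 84.5% in Polysome. The median over the members was 52.5% in Input and 63.7% in Polysome. A ratio as low as that of EGR1 was found in 0.715% of genes in Input and 0.154% in Polysome, low counts included. Summed reads of the liver genes were 15 in Input Ctrl 2 and 1479 in Polysome Ctrl 2, and their part in these levels was not tested.

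**Figure D4:**
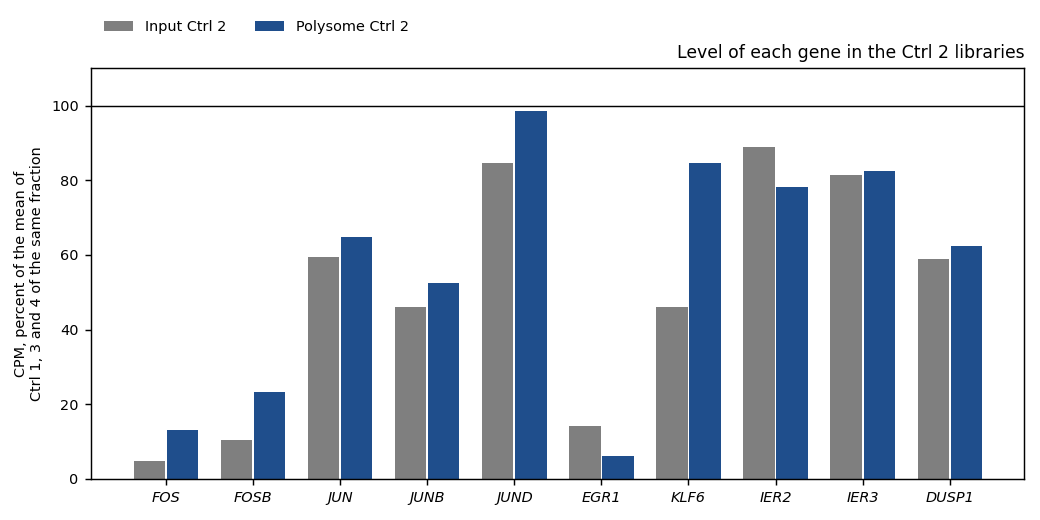
Level of each member in Ctrl 2 as a percent of the mean of Ctrl 1, 3 and 4 of the same fraction, in Input (grey) and Polysome (blue). The line at 100 marks equality, FOS, FOSB and EGR1 lie at 4.90 to 23.2%, and IER2, IER3 and JUND lie at 78.2% or more.

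FOS also kept 1 order of replicates across fractions. From high to low it ran 4, 3, 1, 2 in both the Input and the Polysome libraries of Ctrl, and 2, 4, 1, 3 in both fractions of siRNAG5. EGR1 had the order of FOS in both fractions of Ctrl. Among the Ctrl libraries of Input the SD of log2 CPM was 1.94 for FOS, 1.31 for EGR1 and 1.17 for FOSB, against a median of 0.17 over all genes, whereas it was 0.13 for IER2, 0.16 for JUND and 0.17 for IER3. In siRNAG5 the Input SD of EGR1 was 0.28 and that of FOS 0.70. In Input Ctrl the SD of FOS and EGR1, taken over single libraries, exceeded the size of their log2 FC, which compares group means. Ctrl 2 lay apart there, at 0.225 CPM for FOS and 0.524 CPM for EGR1. The other Input Ctrl libraries ran from 3.58 to 6.44 CPM for FOS and from 3.38 to 4.17 CPM for EGR1.

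Over the 16 libraries, the gene whose log2 CPM ran most like that of a member was itself a member for 3 of the 10, and members filled 5 of the 20 places when the second gene was counted too. These Pearson r are descriptions, over 16 libraries that share their groups and depths and out of 14958 genes. JUN was most like DUSP1 (r = 0.951) and DUSP1 like JUN, EGR1 was the nearest gene to FOS (0.825), and FOSL2, which encodes another AP-1 subunit, was nearest to EGR1 (0.831). DUSP1 was second for JUNB (0.877) after NEUROG2. ZC3H12A, which encodes an RNase that degrades inflammatory mRNAs, was nearest to FOSB (0.868) and second for FOS (0.811). KLF6 ran with ARHGEF6 (0.979) and FZD1 (0.978), JUND with TMEM25 (0.959) and LRP3 (0.953), IER2 with NCKAP5L (0.938) and CNTROB (0.919), and IER3 with ADAP2 (0.918).

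Other immediate early genes give the setting. Of a list of 37, 30 were tested between treatments in Input, and 10 were called higher and 1 lower (10.5% and 6.02% over all genes), with a median log2 FC of 0.35 against 0.04 over all genes. In Polysome 5 of 32 were called higher and 0 lower (3.95% and 4% over all genes). The largest in Input were CCN2, a secreted matricellular protein (0.336 ± 0.279 CPM in Ctrl and 1.00 ± 0.239 CPM in siRNAG5, log2 FC 1.59 ± 0.46, adjusted p 0.00656 by edgeR), and NR4A1, an orphan nuclear receptor (6.82 ± 1.61 and 13.8 ± 1.51 CPM, log2 FC 1.04 ± 0.14, adjusted p 8.40e-07 by edgeR). NR4A1 was called in Polysome too (1.05 ± 0.20), as was KLF10, a zinc finger factor of the family of KLF6 (1.25 ± 0.29). Named after their values were seen, the other 3 called in Polysome were ATF3 (0.99 ± 0.26), BTG2 (0.70 ± 0.13) and MYC (0.61 ± 0.17). Their adjusted p were 0.0400, 0.0138 and 0.0465 by edgeR. The 1 called lower in Input, named in the same way, was SGK1 (-0.60 ± 0.23, adjusted p 0.0409 by edgeR). Alternatives are not given for these listed genes. Ctrl 2 was the lowest Ctrl library for 18 of 32 of these genes in Input and 17 of 32 in Polysome, at a median of 78.5% and 75.2% of the other 3. The lowest of these genes in Input, also picked after the values were seen, was ARC, a cytoskeletal protein of neurons. It was at 8.14% of the other 3, on a level of only 0.225 CPM in Ctrl 2.

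The calls between treatments in the next lists stand beside shares over all genes tested. These were 10.5% higher and 6.02% lower in Input, and 3.95% higher and 4% lower in Polysome. Among the 10 tested partners of AP-1, JDP2, which dimerizes with Jun proteins, was called higher in siRNAG5 in both fractions (0.92 ± 0.15 and 1.04 ± 0.19). In Input BATF2 was called higher (1.76 ± 0.31) and BATF3 lower (-0.62 ± 0.10), and JDP2 was the only call in Polysome. Of 25 genes of the kinase and transcription factor steps upstream, 1 was called higher and 1 lower in Input, namely EGFR, a receptor tyrosine kinase (0.83 ± 0.26), and HRAS, a small GTPase (-0.78 ± 0.07), and HRAS was the only 1 called in Polysome (-1.16 ± 0.25). SRF, which binds CArG boxes, was called higher in Polysome than in Input in Ctrl (1.56 ± 0.14) and in siRNAG5 (1.74 ± 0.12). Of the 9 other tested DUSP genes 2 were called higher in Input (DUSP4 and DUSP5) and 1 lower (DUSP7), and 0 in Polysome. Of 16 genes for AU-rich element binding and mRNA decay, 0 were called in Input and 1, ZFP36L1, whose protein binds AU-rich elements, was called higher in Polysome (0.79 ± 0.22, adjusted p 0.0471 by edgeR). Between fractions in Ctrl, 20.8% of all genes tested were called higher in Polysome and 18.8% lower. Called higher were 7 of 10 AP-1 partners, 11 of 25 upstream genes, 4 of 9 DUSP genes, 7 of 16 decay genes and 7 of 28 other immediate early genes. Called lower were, in the same order, 0, 1, 0, 1 and 2 genes. In siRNAG5 the shares over all genes were 23.9% and 21.2%. Called higher there were 7 of 10, 13 of 25, 3 of 9, 8 of 16 and 7 of 32, and lower 0, 1, 0, 1 and 2. The lists were not tested against each other or against all genes.

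Annotated genes overlap 3 members on the opposite strand. JUNB overlaps HOOK2 (4075 and 1828 reads over the 16 libraries), IER3 overlaps IER3-AS1 (3085 and 805 reads) and HCG20, and IER2 overlaps a gene with 7 reads. The libraries were stranded, but the strand setting of the counting is not given in the sources used here, so the share of reads passed between JUNB or IER3 and its neighbour is uncertain.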

How the data were processed

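RNA-Seq libraries of Input and Polysome RNA from Ctrl and siRNAG5 cells (4 libraries in each of 4 groups) were used, with groups and replicate numbers taken from the sample labels. Per the labels and methods, the authors sequenced stranded poly(A) libraries with paired 100 bp reads, used STAR 2.5.3a for alignment to GRCh38 (Ensembl release 91) and QoRTs for counting, and deposited raw whole-number read counts, 1 per gene and library. Reads listed as not unique, without feature or ambiguous were left out. A later annotation of the same build (GENCODE 44) named 57532 of 58302 identifiers and gave transcript lengths, GC content, UTRs and coordinates. Promoter windows were from RefSeq.

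The members and all gene lists were chosen with earlier results of these data known. For each comparison the 8 libraries of its groups were fitted over all genes by the quasi-likelihood test of edgeR 4.0.16 (R 4.3.3), after filterByExpr and TMM scaling and with no term besides group. The interaction of fraction and treatment used the 16 libraries together. Calls needed both an adjusted p (Benjamini-Hochberg, over all genes tested) under 0.05 and a log2 FC beyond 0.5. Levels are CPM scaled with TMM factors over the 16 libraries, and intervals are at 95%. SD of log2 CPM used an offset of 0.1 CPM. Besides the members and GEMIN5, named genes were, per list, at most 2 called higher and 2 called lower with the largest log2 FC and no overlap between groups, and, per member, the 2 genes with the highest Pearson r of log2 CPM (prior count 2). Ctrl 2 was examined after its values were seen. In simulated counts with 200 genes changed 4-fold, all 200 were recovered in each of the 5 designs, with 4 to 22 false calls. The changed genes were drawn from those with a mean above 5 CPM, and recovery did not require the log2 FC limit. Their simulated spread followed the trend over all genes. The simulation therefore does not show what is detectable for smaller changes, or for genes with few reads or a wide spread. Alternatives were RLE factors, DESeq2 1.42.0, no filter, the replicate number as a block, an offset for transcript length and GC content, no log2 FC limit, all 16 libraries in a single fit, and libraries left out. Tables were made with pandas 2.3.3 and figures with matplotlib 3.10.9, in Python 3.11.15.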

Additional observations from a re-analysis of the deposited data

How the results depend on the processing

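KLF6 was called higher in Polysome than in Input in both treatments under all alternatives run, with log2 FC of 1.66 to 2.16 in Ctrl and 1.61 to 2.37 in siRNAG5 (edgeR, and DESeq2 within that range). No member was called for the interaction of fraction and treatment under any alternative run. Few reads per library limit FOSB (0 to 19). In Input they also limit FOS (3 to 68), EGR1 (7 to 44) and KLF6 (11 to 43). In Polysome FOS had 9 to 96, EGR1 9 to 194 and KLF6 48 to 280 reads per library. The causes of the changes below were not tested.

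Between treatments in Input, where 0 members were called, 1 member was called with RLE size factors, without the filter on low counts, and with the offset for length and GC content (EGR1 each time), 2 without a log2 FC limit (JUN and JUND, with 5230 genes in place of 2330) and 2 without Input Ctrl 3 and 4 (JUN and KLF6). Leaving out 1 library gave 0 to 2 members. EGR1 and FOS were called without Ctrl 2, JUN and KLF6 without Ctrl 4. Between treatments in Polysome 1 member, KLF6, was called without the 3 Polysome libraries set apart. The 1146 genes called there became 1941 with DESeq2, 1766 without the filter, 1859 with the offset, 2597 in the fit of all 16 libraries, 3115 without the 3 libraries set apart, and 189 to 1523 with 1 library left out, the lowest without Polysome Ctrl 2.

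Between fractions, the 2 members called became 4 in Ctrl and 6 in siRNAG5 without the libraries set apart, and 1 to 4 in Ctrl with 1 library left out. For the interaction, 0 genes called became 29 with DESeq2, 57 without the filter, 3 with the offset, 765 without the libraries set apart and 0 to 1 with 1 library left out.

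Input and Polysome RNA came from individual lysates, but no label ties the replicate numbers to a lysate, and the correlations were not over 0.1 in every pair, so the numbers were not used as pairs in the values reported. Correlations of same-numbered deviations were -0.03 to 0.08 and -0.56 to 0.50 between treatments in Input and Polysome, and -0.10 to 0.22 and -0.21 to 0.22 between fractions in Ctrl and siRNAG5, and 1 or 2 of 4 samples were best matched by their own number. With the replicate block 1 member was called between treatments in Input (EGR1, log2 FC -0.77, adjusted p 0.0365 by edgeR), also together with the offset, and the 2330 and 1146 genes called became 2313 and 1002. With the block and the offset, 1938 genes were called between treatments in Polysome and 19 for the interaction. With the block in Ctrl EGR1 was called between fractions (1.32) and IER2 was not (0.49).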
